A study of Drosophila melanogaster with 12 samples.

Results

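The Greek-letter trypsins followed here are 10 protease genes of *Drosophila melanogaster*, named *alphaTry* to *kappaTry* and called the family below. *lambdaTry*, a further trypsin gene with a Greek-letter name, was not among them. RNA of the 10 was followed in whole larvae that lacked 1 or 2 enzymes of glycolytic redox balance. The members were taken by name, with no use of their measured values, and all 10 were among the 17185 genes of the count files. RNA-seq was made on 12 libraries, 3 biological replicates in each of 4 genotypes, from larvae kept for 60 hours at 25 °C after egg collection. All animals carried w[1118]. The Gpdh1 heterozygotes were w[1118]; Gpdh1[12]/+ and the *Gpdh1* mutants w[1118]; Gpdh1[12]/[14]. The double heterozygotes were Gpdh1[12]/+ with Ldh[16]/+, and the double mutants were Gpdh1[12]/[14] and also Ldh[16]/[17]. Each mutant and its own heterozygote are called a genotype pair below, the *Gpdh1* pair and the double pair. Every control therefore carried 1 mutant *Gpdh1* allele, and no group without a *Gpdh1* mutation was compared here. The labels call the larvae mid-L3, whereas the study's text places this RNA-seq earlier in larval life and names the *Gpdh1* alleles differently.

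Trypsins are secreted serine proteases that cut proteins after arginine and lysine. Midgut cells make them as inactive precursors, and the active enzymes break down dietary protein in the gut lumen, which supplies a growing larva with amino acids. *Gpdh1* encodes glycerol-3-phosphate dehydrogenase and *Ldh* lactate dehydrogenase, enzymes that both regenerate cytosolic NAD+ and so allow glycolysis to continue. The comparisons ask how trypsin RNA levels differed between mutants and their matched heterozygotes, and whether the difference changed when *Ldh* was lost as well.

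In the annotation used (BDGP6.54) these 10 members lie in 1 cluster on chromosome arm 2R, from 11337797 to 11357537, a stretch of 19.7 kb. The order along the arm is *kappaTry*, *zetaTry*, *etaTry*, *thetaTry*, *alphaTry*, *epsilonTry*, *betaTry*, *gammaTry*, *deltaTry* and *iotaTry*. *betaTry*, *deltaTry* and *iotaTry* lie on the plus strand and the other 7 on the minus strand. All are annotated as single-exon genes of 810 to 1071 bases that encode proteins of 252 to 280 residues. The 4 genes *thetaTry*, *alphaTry*, *epsilonTry* and *betaTry* are neighbours between 11341714 and 11347395, a block of 5.68 kb. Spacing does not set this block apart, since *thetaTry* lies 290 bases from *etaTry* and 1499 from *alphaTry*. The cluster also contains 5 annotated features that are not members, among them the trypsin genes *CG30025* and *CG30031*. These were taken to share near-identical coding sequence with *gammaTry* and *deltaTry*, and the identity was not checked here. Short reads might then not always be assigned to 1 of the 4, and the counts of these genes are uncertain.

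The libraries held 22339930 to 26605495 counts assigned to genes. The labels were checked first on the mutated genes. *Gpdh1* was at 483 ± 61.5 CPM (counts scaled to library size; mean ± SD, n = 3 libraries here and below) in Gpdh1 heterozygotes and 268 ± 31.3 in *Gpdh1* mutants. It was at 483 ± 32.9 in double heterozygotes and 61.4 ± 0.53 in double mutants. The 2 mutant groups carry the same *Gpdh1* label, yet *Gpdh1* RNA was lower in double mutants than in *Gpdh1* mutants by a log2 fold change of -2.13 (edgeR, adjusted p = 4.48e-07). Comparisons between the pairs therefore do not rest on equal *Gpdh1* RNA, and why it differed was not tested. *Ldh* fell from 447 ± 9.03 CPM in double heterozygotes to 3.93 ± 0.322 in double mutants. The 3 double-mutant libraries were closer to each other than those of any other group, but no pair of them differed by as little as sampling noise. Exceeding that noise does not show that the 3 came from separate cultures, and the double-mutant p-values rest on their spread. The labels name no parents or cultures for single groups, so rearing and genotype cannot be told apart.

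Of the 10 members, 9 had enough counts for a test, with 99 to 27425 counts in a library. Only *gammaTry* was under the filter. In *Gpdh1* mutants 4 members rose and 2 fell against Gpdh1 heterozygotes, and 3 did not pass (with scaling to midgut markers, described below, 3 rose and 5 fell). In double mutants 8 rose and 0 fell against double heterozygotes, and 1 did not pass (with that scaling 4 rose and 5 fell). These calls are from the edgeR quasi-likelihood F test at a Benjamini-Hochberg adjusted p under 0.05 over all genes tested. The count of 0 was also 0 at an unadjusted p under 0.05 and by DESeq2. Over all genes, 17.9% rose and 20.2% fell in the first comparison, of 10592 tested. In the second, 25.3% rose and 25.9% fell, of 10650. The members' median log2 fold change was 0.36 in *Gpdh1* mutants and 0.81 in double mutants, while that of all genes tested was 0.01 and -0.03. With scaling to midgut markers the median of all genes was -0.77 and -1.29, and the share of all genes called was not counted.

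In CPM, the summed trypsin RNA was higher in both mutants, and midgut markers were higher as well. The 10 genes added up to 461 ± 112 CPM in Gpdh1 heterozygotes and 1000 ± 65.2 in *Gpdh1* mutants, a ratio of 2.17. They added up to 590 ± 43.7 CPM in double heterozygotes and 1962 ± 78.2 in double mutants, a ratio of 3.32. As a share of all gene counts the family went from 0.0417% to 0.101% and from 0.0585% to 0.217%. No library of a mutant group overlapped one of its control group. Divided by the geometric mean CPM of 9 midgut markers, described below, the sum was 35.6 ± 4.12 against 45.7 ± 1.73 in the *Gpdh1* pair and 29.6 ± 2.25 against 41.0 ± 1.48 in the double pair, ratios of 1.28 and 1.39. Most of the sum came from *betaTry* and *epsilonTry*, which made up 59.0 ± 5.12%, 79.0 ± 0.635%, 64.6 ± 1.21% and 75.1 ± 0.276% of the family's counts in Gpdh1 heterozygotes, *Gpdh1* mutants, double heterozygotes and double mutants.

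**Figure D1:**
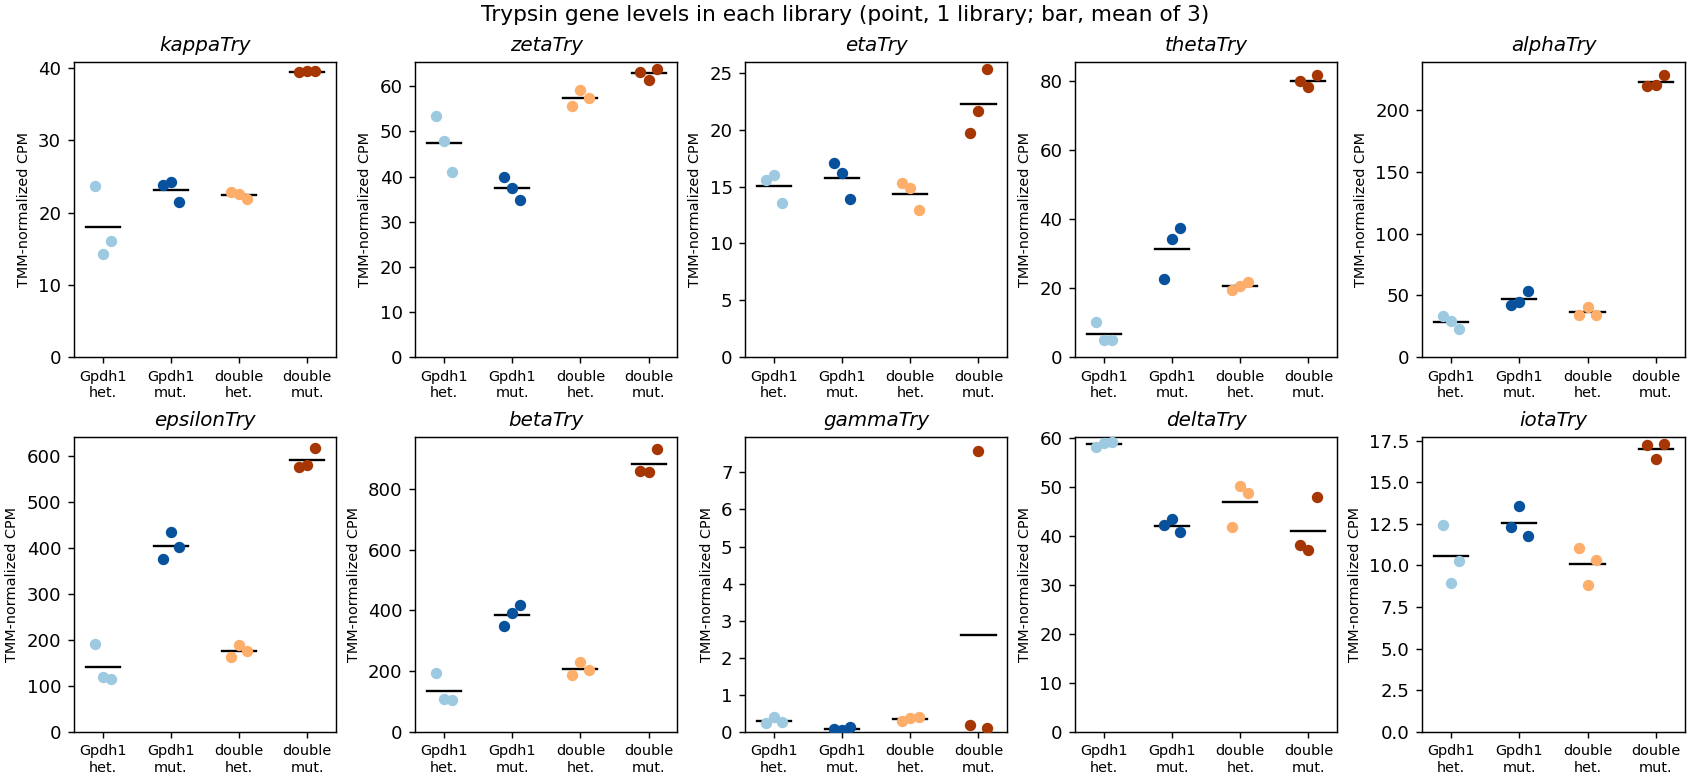
TMM-scaled CPM of each of the 10 trypsin genes in each of the 12 libraries, 1 point per library, on linear axes that start at 0, with the mean of the group as a line. *alphaTry*, *betaTry*, *epsilonTry* and *thetaTry* stood above their controls in every mutant library, *deltaTry* stood below its control in the 3 *Gpdh1* mutant libraries, and *gammaTry* was near 0 except in 1 double-mutant library.

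*betaTry* and *epsilonTry*, the most abundant trypsin RNAs, were higher in both mutants. *betaTry* was at 192, 107 and 104 CPM in Gpdh1 heterozygotes and at 348, 392 and 418 in *Gpdh1* mutants. It was at 186, 230 and 204 CPM in double heterozygotes and at 860, 857 and 931 in double mutants. Controls and mutants did not overlap in either pair, and 1 Gpdh1 heterozygote library, replicate 1, stood well above its fellows. The log2 fold change was 1.52 ± 0.238 (SE, adjusted p = 0.0032) in *Gpdh1* mutants and 2.09 ± 0.0892 (adjusted p = 1.38e-05) in double mutants, or 2.88-fold and 4.27-fold. *epsilonTry* rose in both mutants as well. Its levels were 191, 119 and 115 CPM in Gpdh1 heterozygotes against 376, 435 and 402 in *Gpdh1* mutants. In the double pair they were 162, 188 and 176 CPM in double heterozygotes against 576, 581 and 617 in double mutants. The groups did not overlap. The log2 fold changes were 1.52 ± 0.196 (adjusted p = 0.00156) and 1.75 ± 0.0695 (adjusted p = 1.12e-05).

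*alphaTry* had the highest log2 fold change of the 9 tested members in double mutants and a lower one in *Gpdh1* mutants. It was at 33.6, 29.3 and 23.0 CPM in Gpdh1 heterozygotes and at 42.4, 44.6 and 53.3 in *Gpdh1* mutants. It was at 34.1, 40.5 and 34.3 CPM in double heterozygotes and at 220, 220 and 229 in double mutants. The 3 double-mutant libraries thus stood far above the other 9, which lay between 23.0 and 53.3. The log2 fold change was 0.71 ± 0.147 (adjusted p = 0.00915) in *Gpdh1* mutants and 2.62 ± 0.0799 (adjusted p = 4.31e-06) in double mutants, or 1.64-fold and 6.14-fold.

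*thetaTry* had the highest log2 fold change of the 9 tested members in *Gpdh1* mutants and differed between the 2 control groups. It was at 10.2, 4.98 and 4.98 CPM in Gpdh1 heterozygotes and at 22.7, 34.3 and 37.4 in *Gpdh1* mutants. It was at 19.4, 20.5 and 21.8 CPM in double heterozygotes and at 80.2, 78.3 and 81.7 in double mutants. No 2 of the 4 groups overlapped. The log2 fold change was 2.23 ± 0.315 (adjusted p = 0.0022) in *Gpdh1* mutants and 1.96 ± 0.0591 (adjusted p = 4.15e-06) in double mutants, or 4.68-fold and 3.89-fold.

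*kappaTry*, *iotaTry* and *etaTry*, trypsins of lower abundance, rose in double mutants and did not pass the test in *Gpdh1* mutants. With scaling to midgut markers the direction turned and all 3 were lower, at -0.45, -0.51 and -0.63 in double mutants and -0.39, -0.51 and -0.71 in *Gpdh1* mutants. *kappaTry* was at 22.9, 22.6 and 22.0 CPM in double heterozygotes and at 39.5, 39.6 and 39.6 in double mutants, a rise of 0.81 ± 0.0426 on the log2 scale (adjusted p = 2.89e-05). *iotaTry* was at 11, 8.82 and 10.3 CPM against 17.2, 16.4 and 17.3, a log2 fold change of 0.76 ± 0.0917 (adjusted p = 0.000822). *etaTry* was at 15.3, 14.8 and 12.9 CPM against 19.7, 21.7 and 25.3, a log2 fold change of 0.63 ± 0.112 (adjusted p = 0.00401). In each case every double-mutant library was above every control.

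In the *Gpdh1* pair the values of these 3 genes overlapped between the groups. *kappaTry* was at 23.7, 14.3 and 16.1 CPM in Gpdh1 heterozygotes and at 23.8, 24.3 and 21.4 in *Gpdh1* mutants, with a log2 fold change of 0.36 (95% interval -0.06 to 0.79, adjusted p = 0.149). *iotaTry* was at 12.4, 8.96 and 10.3 CPM against 12.3, 13.6 and 11.8, with a log2 fold change of 0.25 (95% interval -0.05 to 0.55, adjusted p = 0.159). *etaTry* was at 15.5, 16.0 and 13.6 CPM against 17.1, 16.2 and 13.9, with a log2 fold change of 0.07 (95% interval -0.18 to 0.32, adjusted p = 0.63). For *kappaTry* and *iotaTry* the high Gpdh1 heterozygote library, replicate 1, decided the call. Without it their log2 fold changes were 0.61 (adjusted p = 0.00509) and 0.39 (adjusted p = 0.0337).

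In CPM, *zetaTry* was lower in *Gpdh1* mutants and higher in double mutants, but with scaling to midgut markers it was lower in both, at -1.11 and -1.13 on the log2 scale. It was at 53.4, 47.9 and 41.0 CPM in Gpdh1 heterozygotes and at 39.9, 37.4 and 34.8 in *Gpdh1* mutants, a log2 fold change of -0.34 ± 0.104 (adjusted p = 0.0377). It was at 55.6, 59.1 and 57.3 CPM in double heterozygotes and at 63.2, 61.4 and 63.9 in double mutants, a rise of 0.13 ± 0.0448 on the log2 scale (adjusted p = 0.0485). The groups did not overlap in either pair, but both calls were near the threshold. The first was lost without Gpdh1 heterozygote replicate 1 or 2, or without any 1 of the *Gpdh1* mutant replicates, at adjusted p from 0.0578 to 0.122. The second was lost without double heterozygote replicate 1 or 3 or any 1 of the double-mutant replicates, and when replicate numbers entered the fit as a block (adjusted p = 0.114). It was also lost with no filter on low counts (adjusted p = 0.101), in 1 fit of the 12 libraries (0.214) and with the double-mutant libraries summed (0.354).

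*deltaTry* was the tested member with the lowest log2 fold change in *Gpdh1* mutants. It was at 58.2, 58.9 and 59.1 CPM in Gpdh1 heterozygotes and at 42.2, 43.4 and 40.7 in *Gpdh1* mutants, groups that were far apart for their spread. The log2 fold change was -0.48 ± 0.0502 (adjusted p = 0.000853), or 0.718-fold. In the double pair it was at 41.8, 50.1 and 48.8 CPM in double heterozygotes and at 38.2, 37.0 and 47.8 in double mutants. These overlapped, with a log2 fold change of -0.19 (95% interval -0.48 to 0.09, adjusted p = 0.219). Without double mutant replicate 3, the highest of that group, the fall passed the test at -0.32 (adjusted p = 0.0447).

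*gammaTry*, taken as a near-identical copy of *deltaTry*, was counted 5, 8 and 6 times in Gpdh1 heterozygotes and 2, 1 and 3 times in *Gpdh1* mutants. It was counted 7, 10 and 9 times in double heterozygotes and 5, 215 and 3 times in double mutants. A single library, double mutant replicate 2, therefore stood apart, at 7.59 CPM against 0.403 CPM or less in the other 11. *CG30025* had at most 6 counts and *CG30031* at most 1 in any library. Reads with more than 1 alignment were set aside at counting, 8.06% to 14.7% of all counted fragments over the libraries. Summing the 4 copies cannot bring back those reads, and in the *Gpdh1* pair nearly all of the summed counts were those of *deltaTry*. With the 4 copies summed into 1 feature the log2 fold change was -0.48 (adjusted p = 0.000818) in *Gpdh1* mutants and -0.12 (adjusted p = 0.376) in double mutants. The difference between these effects was 0.36 for the summed copies (edgeR, adjusted p = 0.0465), which passed the test, whereas *deltaTry* alone did not pass at 0.29 (adjusted p = 0.145). The sum takes in the 215 *gammaTry* counts of double mutant replicate 2 and was not fitted without that library.

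**Figure D2:**
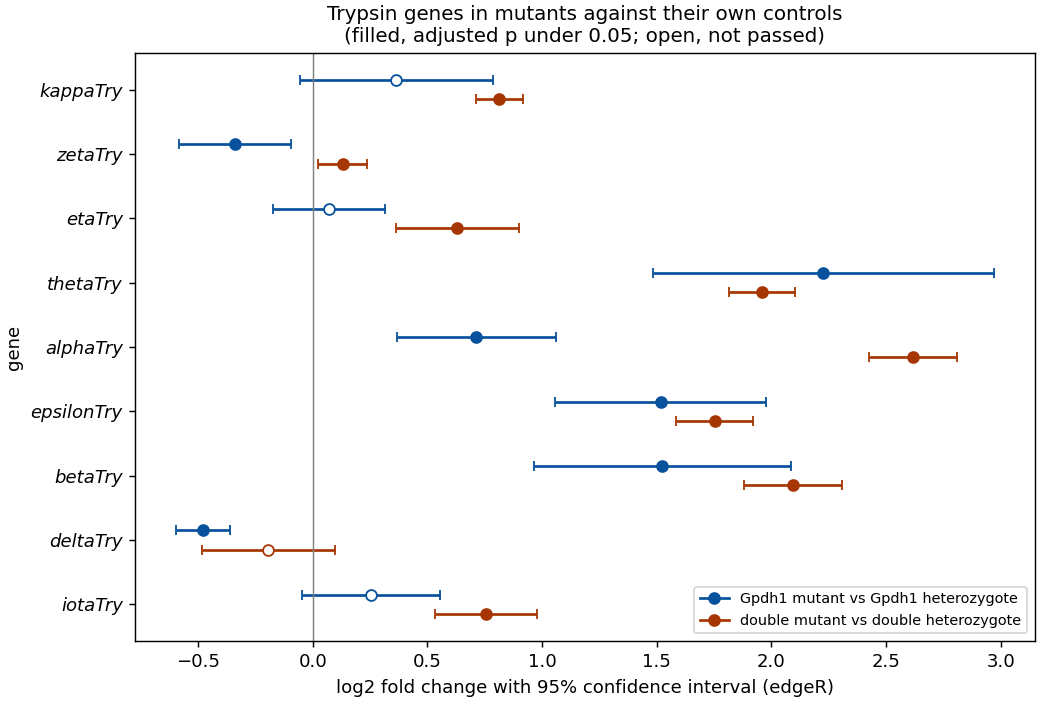
The log2 fold change of the 9 tested members in *Gpdh1* mutants against Gpdh1 heterozygotes and in double mutants against double heterozygotes, with 95% intervals. Filled points passed the test and open points did not. *alphaTry* was at 0.71 and 2.62, *thetaTry* at 2.23 and 1.96, and *deltaTry* at -0.48 and -0.19, whereas with scaling to midgut markers *alphaTry* in *Gpdh1* mutants was at -0.06.

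Whether the mutant effect differed between the genotype pairs was tested as a contrast in 1 fit of the 12 libraries. The effect was higher in double mutants for 4 members, *alphaTry*, *zetaTry*, *etaTry* and *iotaTry*, and lower for 0, while 5 did not pass. With scaling to midgut markers, which put the median of all genes at -0.49, it was higher for 1, *alphaTry*, and lower for 1, *thetaTry*. Without that scaling, 12.0% of the 10880 genes tested were higher and 13.5% lower. The count of 0 was again 0 at an unadjusted p under 0.05 and by DESeq2. *alphaTry* stood out, with a difference of 1.91 ± 0.184 on the log2 scale (adjusted p = 0.00011). The differences for *zetaTry* (0.47 ± 0.12, adjusted p = 0.0159), *etaTry* (0.56 ± 0.16, adjusted p = 0.0261) and *iotaTry* (0.51 ± 0.165, adjusted p = 0.0445) were smaller. That of *iotaTry* was lost in 13 of 21 alternatives, among them the replicate block (adjusted p = 0.0523). It was also lost when 1 library was left out, namely replicate 1 or 3 of either *Gpdh1* group, replicate 2 or 3 of the double heterozygotes, or any double-mutant replicate (adjusted p from 0.0621 to 0.0852). That of *etaTry* was lost in 6 of 21, among them without Gpdh1 heterozygote replicate 1 or 2 or double heterozygote replicate 3 (adjusted p from 0.0530 to 0.0611). The differences of *zetaTry*, *etaTry* and *iotaTry* were all lost when the double-mutant libraries were summed into 1, and with scaling to midgut markers.

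The 3 other genes of the central block were not shown to respond differently. The difference was 0.57 for *betaTry* (95% interval -0.05 to 1.2, adjusted p = 0.164). It was 0.24 for *epsilonTry* (95% interval -0.27 to 0.75, adjusted p = 0.482) and -0.26 for *thetaTry* (95% interval -1.02 to 0.49, adjusted p = 0.613). Each interval holds differences larger than that of *etaTry* in at least 1 direction. *deltaTry* was at 0.29 (95% interval -0.01 to 0.59, adjusted p = 0.145) and *kappaTry* at 0.45 (95% interval 0.01 to 0.90, adjusted p = 0.123).

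The 4 members with the largest fold changes were the same in both pairs and were the neighbours *thetaTry*, *alphaTry*, *epsilonTry* and *betaTry*. *lambdaTry*, a trypsin gene that is not a member, was at 1.78 on the log2 scale in *Gpdh1* mutants, above *betaTry*, *epsilonTry* and *alphaTry*. In double mutants it was at 1.71, below all 4. Together the 4 neighbours held 66.7 ± 4.86% of the family's counts in Gpdh1 heterozygotes and 86.8 ± 1.39% in *Gpdh1* mutants. The block held 74.3 ± 1.14% in double heterozygotes and 90.6 ± 0.135% in double mutants. The shares did not overlap between mutants and controls. Among all genes tested, the fold change of each of the 4 exceeded that of 93.1% to 99.2% of genes in *Gpdh1* mutants and of 97.3% to 98.8% in double mutants. Because the block is made of the members with the largest fold changes, its rising share and high ranks follow from that choice. Outside the block, *deltaTry* went from 13.2 ± 2.92% to 4.22 ± 0.318% of family counts, and from 7.94 ± 0.336% to 2.08 ± 0.216%. *alphaTry* went from 6.27 ± 0.807% to 4.68 ± 0.447% in the *Gpdh1* pair and from 6.15 ± 0.282% to 11.4 ± 0.196% in the double pair.

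**Figure D3:**
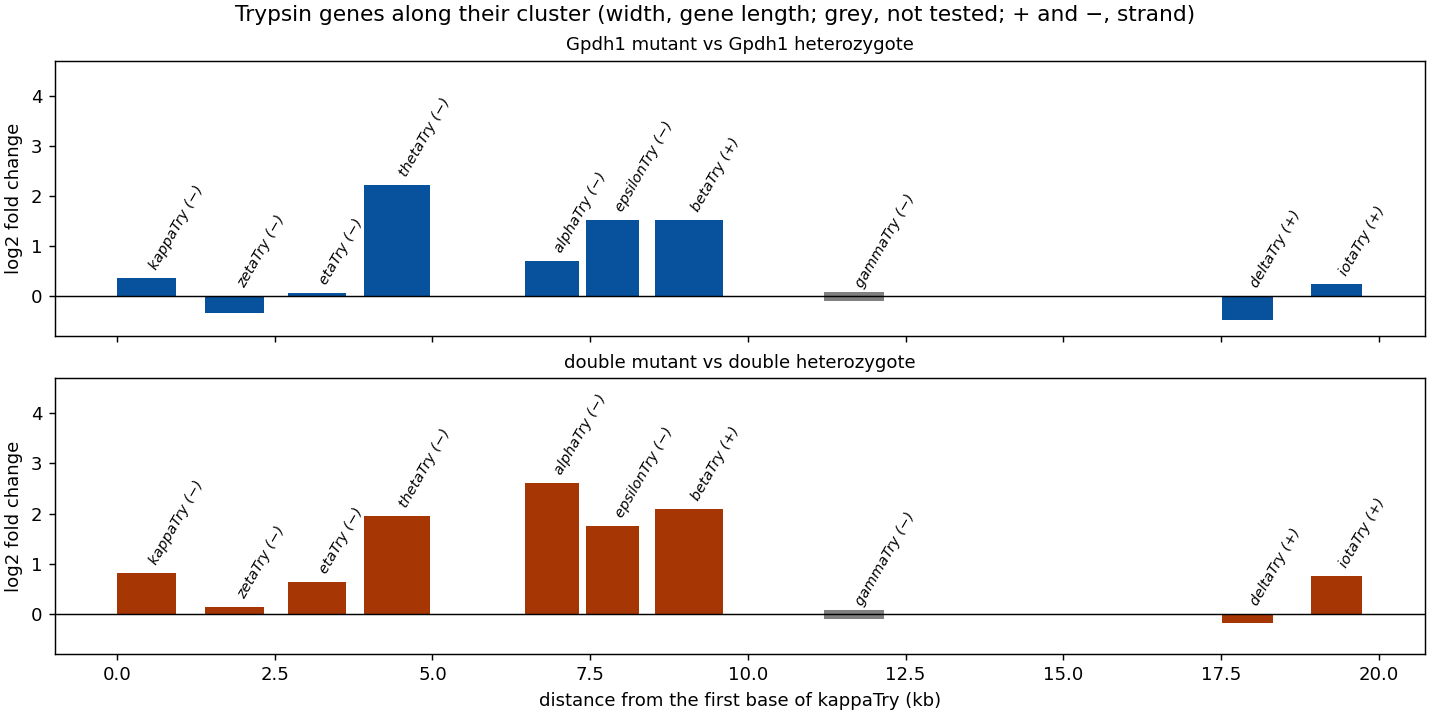
The trypsin cluster by distance in kb from its first base, 1 panel per genotype pair. Each bar spans a gene to scale, its height is the log2 fold change, the sign after the name is the strand, and the grey bar is *gammaTry*, which was not tested. The 4 highest bars belong to the neighbours *thetaTry*, *alphaTry*, *epsilonTry* and *betaTry*, while *zetaTry* and *deltaTry* have bars below 0 in *Gpdh1* mutants. *lambdaTry*, which is not a member, is not drawn. With scaling to midgut markers the *alphaTry* bar of *Gpdh1* mutants would lie at -0.06, and those of *kappaTry*, *etaTry* and *iotaTry* below 0 in both pairs.

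To compare levels between genes, CPM were divided by the annotated exon length in kb. By mean level, *epsilonTry* came first in Gpdh1 heterozygotes, at 171 CPM per kb, ahead of *betaTry* at 126, but their libraries overlapped. *epsilonTry* was clearly first in *Gpdh1* mutants, at 487 CPM per kb against 360. In double heterozygotes the pair, at 211 and 193 CPM per kb, overlapped again. In double mutants the order was turned, with *betaTry* at 824 CPM per kb and *epsilonTry* at 712, and no overlap. *thetaTry* was at 6.42 CPM per kb in Gpdh1 heterozygotes, below every member but *gammaTry*, and at 76.5 in double mutants, where it was the fourth highest. *alphaTry* was the fifth in Gpdh1 heterozygotes, at 33.3 CPM per kb, and the third in double mutants, at 259. *deltaTry* went the other way, from the third place at 72.5 CPM per kb to the sixth at 50.6. Other neighbours whose libraries overlapped were *kappaTry* with *etaTry* and *etaTry* with *iotaTry* in Gpdh1 heterozygotes. In *Gpdh1* mutants these were *alphaTry* with *deltaTry*, *thetaTry* with *kappaTry* and *etaTry* with *iotaTry*, and in double heterozygotes *zetaTry* with *deltaTry*.

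The heterozygotes themselves also differed. Between these control groups, *thetaTry* was higher in double heterozygotes than in Gpdh1 heterozygotes by 1.61 on the log2 scale (adjusted p = 0.00188), *betaTry* by 0.62 (adjusted p = 0.0435) and *zetaTry* by 0.27 (adjusted p = 0.0366). *deltaTry* was lower, at -0.32 (adjusted p = 0.029), and the other 5 did not pass. Over all genes 14.1% were higher and 12.3% lower. Only the *thetaTry* call survived leaving out each of the 12 libraries in turn. Without Gpdh1 heterozygote replicate 1, 6 members were higher and 0 lower.

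Set against *Gpdh1* mutants, double mutants had higher levels of 8 members and lower levels of 0, beside 18.9% of all genes higher and 20.0% lower. With scaling to midgut markers, which put the median of all genes at -1.12, 1 member was higher and 6 were lower. *epsilonTry*, *zetaTry*, *etaTry*, *iotaTry* and *kappaTry* then turned direction. *alphaTry* was higher by 2.25 on the log2 scale (adjusted p = 1.07e-06), *thetaTry* by 1.35 (adjusted p = 0.00104) and *betaTry* by 1.19 (adjusted p = 0.000975). The others that passed were *kappaTry* (0.77), *zetaTry* (0.75), *epsilonTry* (0.55), *etaTry* (0.50) and *iotaTry* (0.43), and *deltaTry* was at -0.04 (adjusted p = 0.787). The count of 0 was 0 at an unadjusted p under 0.05 and by DESeq2. These 2 comparisons share their groups with those above, and set animals of different genotype pairs against each other. The labels name no parents, so *Ldh* genotype and cross cannot be told apart there.

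Since whole larvae were sequenced, a larger midgut share of the RNA and more trypsin RNA per midgut cell cannot be told apart. Of 9 midgut markers, 8 rose and 0 fell in *Gpdh1* mutants, with a median log2 fold change of 0.63, and 9 rose in double mutants, with a median of 0.98. Their summed level was 230 to 287 CPM in Gpdh1 heterozygotes, 334 to 346 in *Gpdh1* mutants, 304 to 320 in double heterozygotes and 702 to 710 in double mutants, and none of the 9 was at 0 in any library. *mex1*, an enterocyte marker, rose by 0.69 (adjusted p = 0.00241) and 1.79 (adjusted p = 1.17e-05) on the log2 scale. *Npc1b*, needed for sterol uptake by the midgut, rose by 2.37 (adjusted p = 0.000538) and 2.54 (adjusted p = 3.65e-06). *Myo31DF*, a myosin of the enterocyte brush border, rose by 0.25 (adjusted p = 0.0462) and 1.09 (adjusted p = 9.29e-06).

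The libraries were then scaled to the geometric mean of these 9 markers in place of all genes. Some members rose beyond that mean and others did not. Single markers ran from log2 fold changes of -0.75 to 2.37 in *Gpdh1* mutants and from 0.41 to 2.54 in double mutants. The split is thus relative to their mean, may differ with other markers, and the tests take that mean as exact. This scaling moved the median of all genes by -0.78 and -1.26 on the log2 scale in the 2 comparisons. In double mutants the 4 block genes were still higher, *alphaTry* by 1.36, *betaTry* by 0.83, *thetaTry* by 0.70 and *epsilonTry* by 0.49, with adjusted p of 0.000434 or less. The other 5 were then lower, *kappaTry* at -0.45, *iotaTry* at -0.51, *etaTry* at -0.63, *zetaTry* at -1.13 and *deltaTry* at -1.46. In *Gpdh1* mutants *thetaTry* (1.48), *betaTry* (0.78) and *epsilonTry* (0.77) remained higher, *alphaTry* was at -0.06 (adjusted p = 0.695), and the same 5 were lower. Of the differences between the pairs, that of *alphaTry* stayed, at 1.42 (adjusted p = 0.000101), those of *zetaTry*, *etaTry* and *iotaTry* came to -0.02, 0.08 and 0.00, and *thetaTry* passed in the opposite direction at -0.78 (adjusted p = 0.0247).

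Other midgut proteases moved with the trypsins in part. The Jonah genes encode a further family of secreted gut serine proteases, and all 16 were tested. In *Gpdh1* mutants 5 rose and 1 fell, with a median log2 fold change of 0.39, and in double mutants 11 rose and 1 fell, with a median of 0.68. Over all genes, 17.9% rose and 20.2% fell in the first comparison, and 25.3% rose and 25.9% fell in the second. Values of the Jonah genes with scaling to midgut markers, which moved the median of all genes by -0.78 and -1.26, were not taken. *Jon74E* rose by 1.09 (adjusted p = 0.0429) and 2.66 (adjusted p = 3.39e-05). *Jon65Aiii* was at 0.26 (adjusted p = 0.493) and rose by 1.18 (adjusted p = 6.89e-05) in double mutants. *Jon44E* was at 0.30 (adjusted p = 0.495) in *Gpdh1* mutants and fell to -2.34 (adjusted p = 8.42e-05) in double mutants. Of the trypsin genes outside the Greek-letter list, *lambdaTry* rose in both, by 1.78 (adjusted p = 0.00189) and 1.71 (adjusted p = 9.87e-05). *Try29F*, at 12.7 CPM or less in any library, was at -3.32 (adjusted p = 0.00632) and 1.70 (adjusted p = 0.00287). Its controls differed, at 9.06 ± 5.31 CPM in Gpdh1 heterozygotes and 0.547 ± 0.0943 in double heterozygotes (edgeR, log2 fold change -4.04, adjusted p = 0.00102). The mutants were at 0.901 ± 0.472 and 1.77 ± 0.475 CPM and did not pass against each other (edgeR, adjusted p = 0.223).

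Genes reported to control midgut digestive enzymes were followed as a list of 8, of which 7 were matched and tested. In *Gpdh1* mutants 3 rose and 0 fell (0 at an unadjusted p under 0.05), and in double mutants 5 rose and 0 fell (again 0). Over all genes, 17.9% rose and 20.2% fell in the first comparison, and 25.3% rose and 25.9% fell in the second. For these regulators too, values with scaling to midgut markers were not taken. *GATAe*, the GATA factor of midgut cells and also 1 of the midgut markers, rose by 0.63 (adjusted p = 0.00255) and 0.98 (adjusted p = 4.16e-05) on the log2 scale. *Smox*, the Smad of Activin signalling, was at 0.10 (adjusted p = 0.157) and rose by 0.45 (adjusted p = 0.000576) in double mutants. *sug*, which encodes the sugar-responsive factor Sugarbabe, was at 0.73 (adjusted p = 0.103) and rose by 0.97 (adjusted p = 0.00237).

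**Figure D4:**
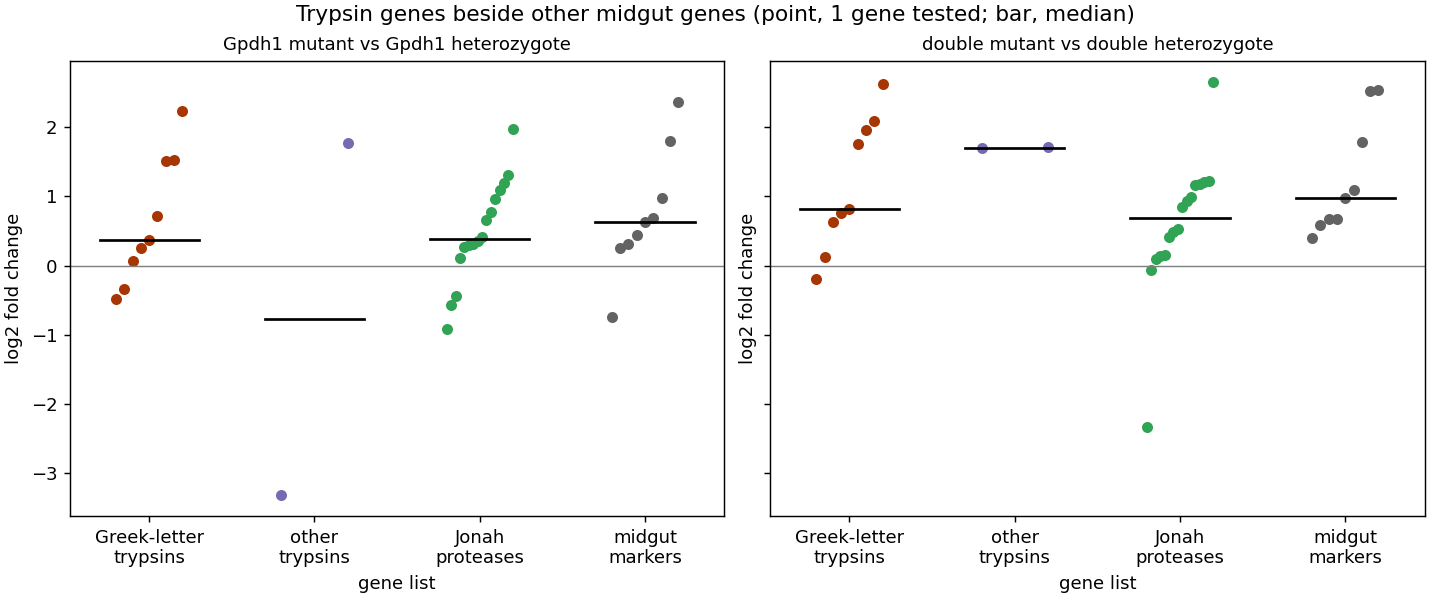
The log2 fold change of each tested gene, 1 point per gene, in the trypsin family, the other trypsins, the Jonah proteases and the midgut markers, for *Gpdh1* mutants and double mutants against their controls, with the median of each list as a bar. The trypsin median of 0.36 and 0.81 lay near that of the midgut markers, 0.63 and 0.98, and of the Jonah proteases, 0.39 and 0.68. With scaling to midgut markers 5 of the 9 trypsins were lower in each comparison, where the median of all genes was -0.77 and -1.29.

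Markers of other tissues moved at the same time. All 7 muscle markers fell in *Gpdh1* mutants and 6 of 7 in double mutants, with medians of -0.38 and -0.40. Of the fat body markers, 3 fell and 1 rose in each mutant. *apolpp* was at -0.69 (adjusted p = 0.00323) in *Gpdh1* mutants and -0.70 (adjusted p = 0.00168) in double mutants. *Fbp1* rose by 4.71 (adjusted p = 0.00123) and 6.0 (adjusted p = 7.85e-06), while *Lsp1beta*, a larval serum protein gene of the third-instar fat body, was at -5.26 (adjusted p = 0.00123) and -7.55 (adjusted p = 0.000457). *Lsp1alpha*, chosen after its values were seen, was at 26.4 to 286 CPM in Gpdh1 heterozygotes and at most 0.339 in *Gpdh1* mutants. It was at 6.96 to 80.9 CPM in double heterozygotes and at most 0.176 in double mutants. Summed muscle markers were at 57991 to 60729 CPM in Gpdh1 heterozygotes, 42014 to 46901 in *Gpdh1* mutants, 52322 to 57738 in double heterozygotes and 41945 to 43413 in double mutants. Of 5 Malpighian tubule markers, 2 fell in *Gpdh1* mutants and 1 rose in double mutants. The part of tissue proportions or larval age in the trypsin values was not tested beyond the scaling to midgut markers.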

How the data were processed

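RNA of whole larvae was sequenced in paired 41-base reads. Per the labels, the authors' processing notes name bcl2fastq 2.20.0.422, cutadapt 1.12, HISAT2 2.1.0 and HTSeq 0.9.0, and the deposited files hold 1 raw count per gene and library. The study's methods name other tools for counting, with Ensembl BDGP6.28 as reference. For the deposited counts, the build and strand setting are not given in the sources used here. The 5 summary lines of each file, 10.9% to 17.5% of its total, were left out. Symbols and positions came from the Ensembl annotation BDGP6.54, which named 17059 of 17185 gene IDs.

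Counts were tested with edgeR 4.0.16 (R 4.3.3; TMM scaling, filterByExpr with a minimum count of 10, quasi-likelihood F test). Each mutant was fitted with its own controls, and the remaining comparisons in 1 fit of the 12 libraries. CPM were scaled by TMM over the 12 libraries. Scripts were tested on simulated data. Alternatives were RLE scaling, DESeq2 1.42.0, other filters, a log2 fold limit of 1, a replicate block, leave-one-out fits, scaling to midgut markers, summed copies, summed double-mutant libraries and 1 fit of all libraries.

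The members and lists were chosen with earlier results of these data known. The text names all 10 members, up to 3 genes of each other list with the smallest adjusted p in double mutants, and the 5 genes most alike to the members. *Lsp1alpha* is named outside this rule.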

Additional observations from a re-analysis of the deposited data

Results flagged for a closer look

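For 4 trypsins the mutant effect on the log2 scale differed between the 2 genotype pairs by the test of the difference itself (edgeR). *alphaTry* differed by 1.91, *zetaTry* by 0.47, *etaTry* by 0.56 and *iotaTry* by 0.51, each higher in double mutants. The *alphaTry* difference passed under every alternative tried and ranged from 1.42 to 2.04. The other 3 depended on single libraries or on the scaling, as given below, and their cause was not tested.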

How the results depend on the processing

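*betaTry*, *epsilonTry* and *thetaTry* passed in both mutant comparisons under every alternative, *alphaTry* likewise in double mutants. In *Gpdh1* mutants *alphaTry* was lost with the fold limit (0.71) and with midgut scaling (-0.059). RLE scaling and DESeq2 gave the same counts of members in both mutant comparisons. With a log2 fold limit of 1, members lower in *Gpdh1* mutants numbered 0, higher in double mutants 4, higher in the difference between pairs 1, double against Gpdh1 heterozygotes 1 higher and 0 lower, and double against *Gpdh1* mutants 3 higher. With midgut scaling there were 5 lower in *Gpdh1* mutants, 4 higher and 5 lower in double mutants, 1 higher and 1 lower for the difference, 1 higher and 7 lower between controls, and 1 higher and 6 lower between mutants. With at least 10 counts in every library, 1 was higher between controls, and with double-mutant libraries summed, 2 for the difference, *alphaTry* and *gammaTry*. In that fit the double-mutant arm is 1 sample, assumed to vary like the other groups, so the spread of 5, 215 and 3 counts of *gammaTry* is hidden.

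Midgut scaling turned the sign in *Gpdh1* mutants of *alphaTry* (-0.059), *etaTry* (-0.71), *iotaTry* (-0.51) and *kappaTry* (-0.39), and in double mutants of *zetaTry* (-1.13), *etaTry* (-0.63), *iotaTry* (-0.51) and *kappaTry* (-0.45). For the difference it turned *deltaTry* (-0.20), *epsilonTry* (-0.28), *zetaTry* (-0.020) and *kappaTry* (-0.061). Between controls it turned *alphaTry* (-0.29), *epsilonTry* (-0.31), *zetaTry* (-0.37) and *kappaTry* (-0.30), and between mutants *epsilonTry* (-0.58), *zetaTry* (-0.39), *etaTry* (-0.64), *iotaTry* (-0.70) and *kappaTry* (-0.36). By construction this scaling sets the midgut markers to no mean change. It put the median of all genes at -0.77, -1.29, -0.49, -0.62 and -1.12 in these comparisons, in the order given. The share of all genes called under it was not counted.

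Leaving out 1 library at a time gave 4 to 6 higher and 1 to 2 lower in *Gpdh1* mutants, 7 to 8 higher and 0 to 1 lower in double mutants, and 2 to 4 higher and 0 lower for the difference. It gave 1 to 6 higher and 0 to 1 lower between controls, and 7 to 8 higher and 0 lower between mutants. The difference was lowest, at 2, without Gpdh1 heterozygote replicate 1 or double heterozygote replicate 3. The sign turned for some values near 0. *etaTry* in *Gpdh1* mutants ranged from -0.0016 (without Gpdh1 heterozygote replicate 3) to 0.16, and *epsilonTry* in the difference from -0.037 (without Gpdh1 heterozygote replicate 1) to 0.37. Between controls *iotaTry* ranged from -0.17 to 0.063 (without Gpdh1 heterozygote replicate 1; 0.015 without double heterozygote replicate 2) and *etaTry* from -0.13 to 0.0046 (without double heterozygote replicate 3). Between mutants *deltaTry* ranged from -0.16 to 0.037 (without double mutant replicate 2).

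Same-numbered libraries did not deviate together (correlations of -0.19, -0.22 and -0.10 in the *Gpdh1* pair), so the numbers were not taken as pairs. With a replicate block, 4 members were higher and 2 lower in *Gpdh1* mutants, 7 higher in double mutants and 3 in the difference. Low counts kept *gammaTry* from the test, and with 3 libraries per group single libraries decided several calls near the threshold.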

Other observations

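The 5 genes outside the family whose log2 CPM over the 12 libraries were most like the mean of the 9 tested members were *CG4781* (Pearson r = 0.997), *CG12963* (0.994), *Mal-A8* (0.993), *CG5096* (0.992) and *CG7992* (0.992). The points share the 4 genotype groups, so these values describe agreement between group levels. The mean does not stand for every member. With the mean of the other members, *deltaTry* had an r of -0.73 and *zetaTry* of 0.40, the rest from 0.82 (*etaTry*) to 0.98 (*betaTry*). *Mal-A8*, a maltase gene, was at 20.4 CPM in Gpdh1 heterozygotes against 51.0 in the *Gpdh1* mutants, and at 38.6 in double heterozygotes against 215 in the double mutants. *CG5096* was at 41.6, 67.0, 51.3 and 116 CPM in the same order.

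*gammaTry* had 215 counts in 1 double-mutant library and 1 to 10 in the other 11. Tested without a filter on low counts, it was at -1.71 on the log2 scale in *Gpdh1* mutants against Gpdh1 heterozygotes (edgeR, adjusted p = 0.0525), where counts of 1 to 3 stood against 5 to 8. Double mutants were at 2.87 against double heterozygotes (adjusted p = 0.193) and at 4.88 against *Gpdh1* mutants (adjusted p = 0.0374), values that both rest on the 1 library.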
